A study of Arabidopsis thaliana with 8 samples.

Results

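MIR163, listed as ath-MIR163 in the deposited table (locus tag AT1G66725), is the precursor gene of miR163 and 1 of the 325 miRNA precursors among the 20347 loci counted in *Arabidopsis thaliana* phloem exudates. It was selected by its name, not by its values, although earlier results of these data were known at that time. Small RNA was sequenced from exudates of Col-0 wild-type plants that grew for 11 days on half-strength MS medium with iron and then spent 3 days on medium without iron (−Fe, 4 libraries) or on fresh medium with iron (+Fe, 4 libraries). Exudate was collected from the cut hypocotyls of many pooled rosettes, in water after an incubation in EDTA that was removed, so each library is a pool of plants and its source is acellular. The library totals, each the sum over all 20347 loci, ranged from 10347644 to 14116739 counts. Loci can overlap, so some reads enter a total more than once. CPM are counts in every 1000000 of this total, not of all reads sequenced. Small RNA libraries hold no cell type markers against which the exudate label could be checked. Some miRNA families are known from phloem sap, though shoots can also express them. All 6 precursors of miR395 (22.9 CPM summed) and all 3 of miR398 (503 CPM) had counts in all 8 libraries. So had the single one of miR827 (2.80 CPM). Of miR399 (1.87 CPM summed) 4 of 6 precursors had any count, and of miR2111 (1.95 CPM) 1 of 2. None of these had counts in all 8 libraries, and summed by family miR399 had counts in 7 libraries and miR2111 in 5. Among all 325 precursors 255 had any count, with a median of 2.41 CPM, and 105 had at least 10 counts in every library.

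Plant miRNAs are cut by DICER-LIKE1 from hairpin transcripts, loaded into Argonaute proteins and guide the cleavage of mRNAs to which they are nearly complementary. miR163 is longer than most plant miRNAs, and its targets are mRNAs of the SABATH family, enzymes that move a methyl group from S-adenosylmethionine to small acids and related metabolites. PXMT1, a methyltransferase with activity on paraxanthine, and FAMT, which methylates farnesoic acid, are among these targets. The gene is young in evolutionary terms and is thought to have come from an inverted duplication of one of its own targets. Since the counts are per precursor, miR163 and the passenger strand of the same hairpin are not separated here.

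MIR163 was listed on chromosome 1 from 24884065 to 24884395 (331 nt), in coordinates as deposited, for which the labels name TAIR10. In the TAIR10.1 gene table it overlapped no other gene. Its neighbour on the side of lower coordinates was AT1G66720, followed by the transcribed pseudogene AT1G66710, then PXMT1 (AT1G66700) and AT1G66690, so 3 of the 5 target genes examined here lie in a row beside the gene that makes their miRNA. On the other side the next gene was LIG6 (AT1G66730), which encodes a DNA ligase. A second locus of the table, from 24883888 to 24884523 (636 nt), encloses the precursor with 177 nt before and 128 nt after it. It had the same count as MIR163 in all 8 libraries, so the flanks added no count to those of the precursor. Of 168 precursors with a count that lie inside another locus, 53 shared this property.

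MIR163 had 3920, 4754, 2462 and 3102 counts in −Fe replicates 1 to 4, against 3642, 3896, 2858 and 3400 counts in +Fe replicates 1 to 4, or 28034 in all. Scaled to the library total, the level was 370, 375, 208 and 236 CPM in −Fe replicates 1 to 4, against 258, 377, 213 and 325 CPM in +Fe replicates 1 to 4. The highest values, near 375 CPM, were found in both conditions, in −Fe replicates 1 and 2 and +Fe replicate 2, and so were the lowest, in −Fe replicate 3 and +Fe replicate 3, and the groups overlapped over almost their whole range. These counts leave little counting error: the 95% Wilson intervals were, for example, 359 to 382 CPM in −Fe replicate 1 and 250 to 267 CPM in +Fe replicate 1. Intervals of this kind cover counting error only, not variation between plant pools or preparations. They treat reads as independent molecules, which PCR copies without molecular identifiers are not, so the intervals can be too narrow even for counting error. They overlapped in 4 of the 28 pairs of libraries, and the counts differed from the library totals by a chi-square of 228 per degree of freedom.

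**Figure D1:**
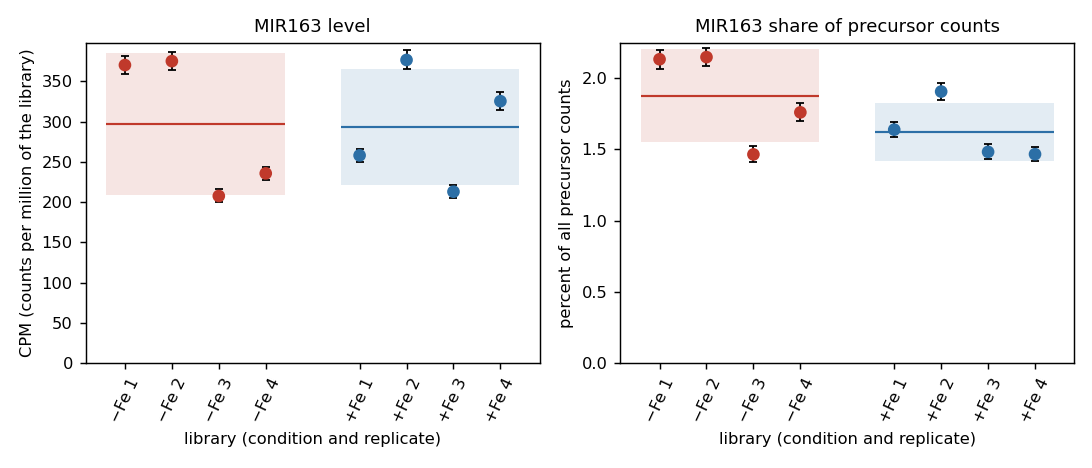
MIR163 in each library as CPM (left) and as a percentage of all precursor counts (right), with −Fe in red and +Fe in blue. Points are libraries with 95% Wilson intervals, lines are group means and shaded bands are 1 SD (n = 4 each). The CPM values run from 208 to 375 in −Fe and from 213 to 377 in +Fe, and the bands overlap in both panels.

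MIR163 did not differ detectably between −Fe and +Fe exudates. It averaged 297 ± 88.0 CPM in −Fe and 293 ± 72.3 CPM in +Fe exudates (SD, n = 4 each), a difference of 3.94 CPM (exact two-sided permutation test, p = 1.00, where the smallest possible p is 0.0286). By edgeR's quasi-likelihood test with TMM scaling across all loci, its log2 fold change of −Fe over +Fe was 0.22 with a standard error of 0.22 and a 95% interval of -0.24 to 0.67 (unadjusted p = 0.339, Benjamini-Hochberg adjusted p = 0.998). The interval does not cover a change of 2-fold in either direction, but leaves room for smaller ones. No locus was called in this comparison: 0 of 17722 tested loci (0%) passed an adjusted p under 0.1 and a log2 fold change of 0.5 or more in size. At an unadjusted p under 0.05 there were 1186 loci (6.69%), and 14 of the 233 precursors tested (6.01%), and MIR163 was not among them. DESeq2 called 34 loci, and its log2 fold change for MIR163 was 0.21 with an adjusted p of 0.996.

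The size of the fitted change followed the scaling. With the library totals in place of TMM, the log2 fold change of MIR163 was 0.02, and the median over all tested loci was -0.12, against 0.07 with TMM. Relative to that median, MIR163 lay higher by a similar margin under both. On the TMM scale, MIR163 averaged 316 ± 76.6 CPM in −Fe and 272 ± 60.0 CPM in +Fe exudates (p = 0.371 in the exact permutation test). Without −Fe replicate 1 the log2 fold change was 0.07, without −Fe replicate 3 it was 0.37, and without +Fe replicate 3 it was 0.07, none with an adjusted p under 0.1. The difference of the mean CPM changed sign when 1 of 4 libraries was left out, to -20.4 CPM for −Fe replicate 1, -22.0 CPM for −Fe replicate 2, -7.79 CPM for +Fe replicate 1 and -22.8 CPM for +Fe replicate 3. Among the 105 precursors with at least 10 counts in every library, the median log2 fold change was 0.01, with a range of -1.19 to 0.88, and 25 had a higher value than MIR163.

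As a part of the precursor counts, MIR163 held 1.75% over the 8 libraries together. The share was 2.13%, 2.15%, 1.47% and 1.76% in −Fe replicates 1 to 4, against 1.64%, 1.91%, 1.48% and 1.47% in +Fe replicates 1 to 4. −Fe replicates 1 and 2 lay above every +Fe library, while −Fe replicate 3 lay just below the lowest of them. The means were 1.88% ± 0.328 in −Fe and 1.62% ± 0.204 in +Fe exudates (SD, n = 4 each), a difference of 0.253 percentage points, below the SD of −Fe and above that of +Fe (p = 0.257 by the exact two-sided permutation test). Leaving out single libraries kept it between 0.162 and 0.390 percentage points. All precursors together made up 1.56% ± 0.212 of the counts in −Fe and 1.80% ± 0.360 in +Fe libraries (exact two-sided permutation test, p = 0.314).

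MIR163 was among the leading precursors of the exudate. With a mean of 295 ± 74.5 CPM (SD, n = 8), it ranked 13 of 325 precursors, of which 255 had any count. The median of those 255 was 2.41 CPM. MIR158a, whose miRNA acts on mRNAs of pentatricopeptide repeat proteins, led the list with 4471 ± 729 CPM, 15.1 times the mean of MIR163. MIR166a, a regulator of HD-ZIP III transcription factors, followed with 3474 ± 1071 CPM, and MIR159a, a regulator of GAMYB-like factors, with 1793 ± 555 CPM. Together the 13 highest precursors held 83.0% of the precursor counts.

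Within single libraries the rank of MIR163 was 8, 10, 14 and 10 in −Fe replicates 1 to 4, against 12, 11, 12 and 12 in +Fe replicates 1 to 4. It thus ran from 8 to 14 in −Fe and from 11 to 12 in +Fe libraries, and the groups overlapped (means 10.5 in −Fe and 11.8 in +Fe, p = 0.486 by exact permutation). In every library 6 precursors lay above MIR163 and 311 below it, while the other 7 lay above it in some libraries and below it in others. miRNA reads come from a small part of the hairpin, so counts per length are lower for long precursors, and at 331 nt MIR163 is well above the median precursor length of 145 nt, with 34 longer ones. Per kilobase of the listed length, MIR163 had 892 ± 225 CPM per kb (SD, n = 8) and ranked 15.

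**Figure D2:**
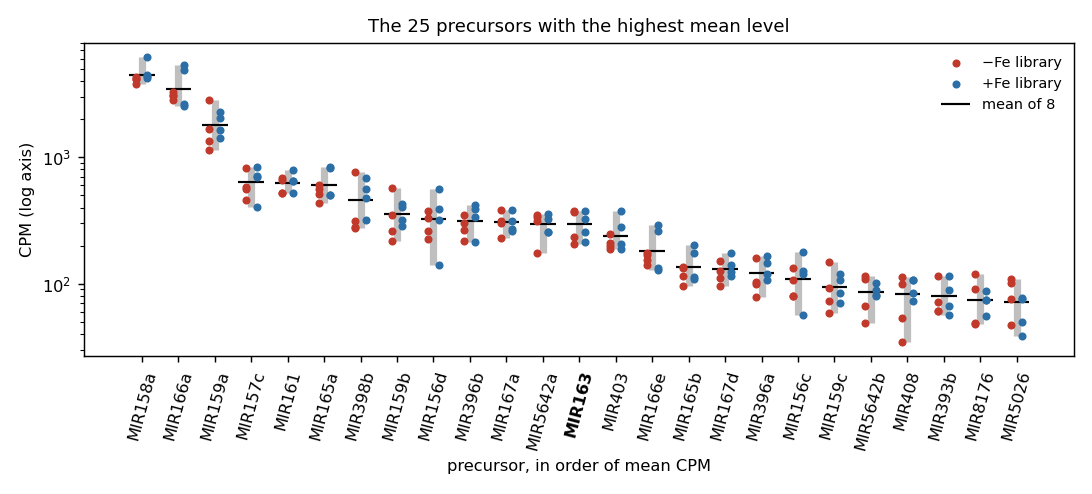
The 25 precursors with the highest mean level, in order of mean CPM (log axis). Red points are −Fe and blue points +Fe libraries, grey bars span the 8 libraries and black lines are means. MIR163, in bold, takes place 13 with 208 to 377 CPM, a range that overlaps those of the precursors directly above it.

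The precursors directly above MIR163 in mean CPM could not be separated from it. MIR396b, which regulates growth-regulating factors, had 312 ± 75.5 CPM (SD, n = 8) and was higher than MIR163 in 5 of 8 libraries. MIR167a, which regulates auxin response factors, had 307 ± 55.2 CPM and was also higher in 5 of 8. MIR5642a had 296 ± 61.9 CPM and was higher in 4 of 8. The mean log2 ratio to MIR163 was 0.08 ± 0.26 for MIR396b, 0.08 ± 0.27 for MIR167a and 0.01 ± 0.65 for MIR5642a (SD over 8 libraries), all within that spread. Below MIR163, MIR403, which regulates an Argonaute mRNA, had 237 ± 64.6 CPM and a log2 ratio of -0.31 ± 0.37, and was lower in 6 of 8 libraries. MIR166e and MIR165b were lower than MIR163 in all 8 libraries, with log2 ratios of -0.73 ± 0.34 and -1.13 ± 0.29. On the scale per kilobase, which divides by unequal lengths, MIR396b (2308 CPM per kb), MIR167a (2221), MIR403 (1757) and MIR166e (1267) stood above MIR163, and MIR5642a (792) and MIR165b (738) below it.

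Most precursors above MIR163 belong to families with several members, whose near-identical miRNAs can share reads. miR163 has a single precursor in the table. Whether it shares reads with other sequences was not examined. Of the 12 precursors above it, 1 was the only member of its family, MIR161 (625 ± 97.0 CPM), another regulator of pentatricopeptide repeat mRNAs. Families here are precursors with the same miRNA number, so that miR165 and miR166, for example, count separately. By this definition MIR163 was the second highest of the 165 precursors that are alone in their family, some of which had no count. Summed by miRNA number, it ranked 12 of 214 families, some of them without a count, after miR5642 (382 CPM) and ahead of miR403 (237 CPM).

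The level of MIR163 varied between libraries with a coefficient of variation (CV, the SD as a percentage of the mean) of 25.3%. Counting reads alone would give 1.71% if reads were independent molecules. The highest library had 1.81 times the CPM of the lowest. Within conditions the CV was 29.6% in −Fe and 24.6% in +Fe libraries. Among the 105 precursors with at least 10 counts in every library the median CV was 33.9%, with a range of 11.6% to 95.0%, and MIR163 took place 22 from the lowest. Among the 19 precursors with a mean above 100 CPM the median was 25.6%, and MIR163 took place 8 of 19. The dispersion that edgeR fitted to MIR163 was 0.0725, against a common dispersion of 1.11 over all loci, and 9 of 233 precursors had a lower one. Fitted dispersions were lower at high counts, for example 0.0598 for MIR158a against 2.08 for MIR857 with 81 counts in all. These comparisons therefore also reflect the count level of MIR163.

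The relation of MIR163 to the precursor content of the library passed the test over all 8 libraries but not under every alternative. The summed level of all other precursors and that of MIR163 had a Pearson r of 0.730 (p = 0.0393) and a Spearman rho of 0.786 (p = 0.0279) over the 8 libraries by exact permutation tests, the only relation of this kind that was tested. Both values share the library total as denominator. Without the libraries farthest from the median of the other precursors, +Fe replicates 2 and 4, r was 0.924 (exact permutation test, n = 6, p = 0.0125), while rho was 0.83 and did not pass (p = 0.0583 by the same test). With each condition's mean removed, r was 0.825 (exact permutation test, p = 0.0261), while rho was 0.619 and did not pass either (exact permutation test, p = 0.115). The condition groups of 4 are too small for a value of their own. Pearson's r did not pass p under 0.05 without −Fe replicate 3 (r = 0.685), −Fe replicate 4 (0.692), +Fe replicate 1 (0.724), +Fe replicate 2 (0.675) or +Fe replicate 3 (0.692), with exact permutation p from 0.0685 to 0.0958. As a share of precursor counts, the CV of MIR163 was 16.4%.

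**Figure D3:**
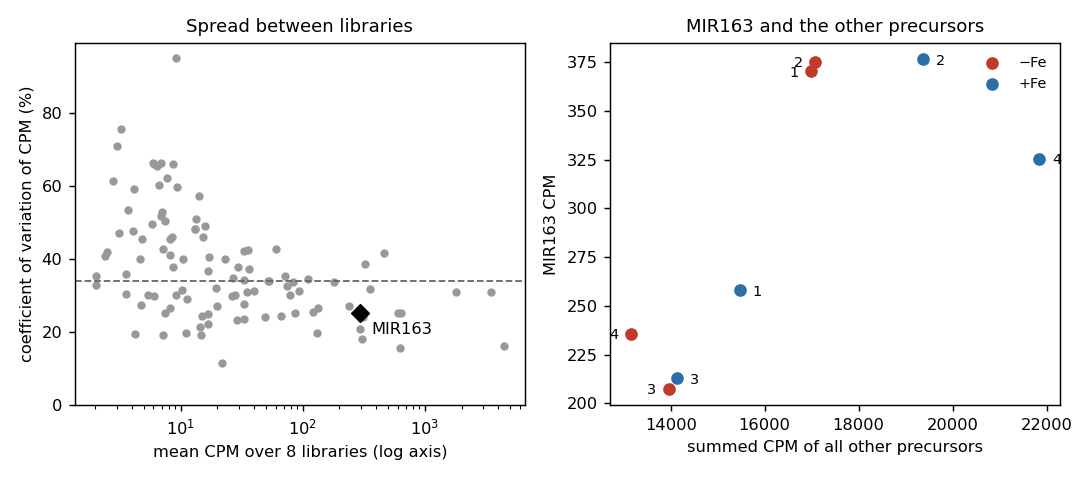
Left, the coefficient of variation of CPM over 8 libraries against mean CPM (log axis) for the 105 precursors with at least 10 counts in every library, with MIR163 as a black diamond at 25.3% and the median of 33.9% dashed. Right, MIR163 CPM against the summed CPM of all other precursors, with −Fe libraries in red, +Fe libraries in blue and replicate numbers beside the points. The libraries with a low summed CPM of other precursors have the low MIR163 values in both conditions.

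The profile of MIR163 over the 8 libraries was compared with those of the other 104 well-counted precursors by the Pearson correlation of log2(CPM + 1), as a description. All of these values share the library totals as denominator. On this scale 91 correlations were above 0 and 13 below, with a median of 0.472, and on the scale of precursor shares 55 were above 0 and 49 below, with a median of 0.052. The highest was that of MIR5644 (r = 0.871), with 18.9, 19.9, 9.11 and 12.3 CPM in −Fe replicates 1 to 4, against 16.4, 15.6, 11.8 and 16.4 CPM in +Fe replicates 1 to 4. Within −Fe it was high in replicates 1 and 2 and lowest in replicate 3, as MIR163 was. MIR156c (0.836) and MIR156a (0.822) came next, regulators of SPL transcription factors that time the change from juvenile to adult growth, and they may share reads with each other.

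MIR408 (r = 0.807), a copper-responsive miRNA directed at mRNAs of copper proteins, had 98.6, 112, 34.6 and 53.5 CPM in −Fe replicates 1 to 4, against 72.3, 106, 83.9 and 107 CPM in +Fe replicates 1 to 4. It had the same high and low −Fe libraries as MIR163, and MIR161 (0.801) completed the 5 highest. On the scale of precursor shares the correlations with MIR163 were 0.755 for MIR5644, 0.628 for MIR156a, 0.588 for MIR156c and 0.552 for MIR408, but 0.184 for MIR161. With Spearman's coefficient 3 of the 5 remained among the highest, MIR156c, MIR156a and MIR408.

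The profiles least like that of MIR163 were those of MIR158b (r = -0.678) and MIR5642a (r = -0.617). MIR158b had 8.12, 6.39, 12.5 and 12.2 CPM in −Fe replicates 1 to 4, against 12.9, 5.41, 10.1 and 14.0 CPM in +Fe replicates 1 to 4. It was thus low where MIR163 was high in −Fe replicates 1 and 2 and +Fe replicate 2. In +Fe replicate 4, however, MIR158b had its highest value while MIR163 was at 325 CPM. MIR5642a, the neighbour of MIR163 in mean level, had its lowest value, 176 CPM, in −Fe replicate 1, and 310, 349 and 339 CPM in −Fe replicates 2 to 4, against 257, 257, 356 and 326 CPM in +Fe replicates 1 to 4. Its listed position on chromosome 3 ends 52 nt before a locus that overlaps rRNA genes. With TMM scaling the correlations were -0.246 for MIR158b and -0.521 for MIR5642a, and on the scale of precursor shares -0.685 and -0.555 in the same order.

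**Figure D4:**
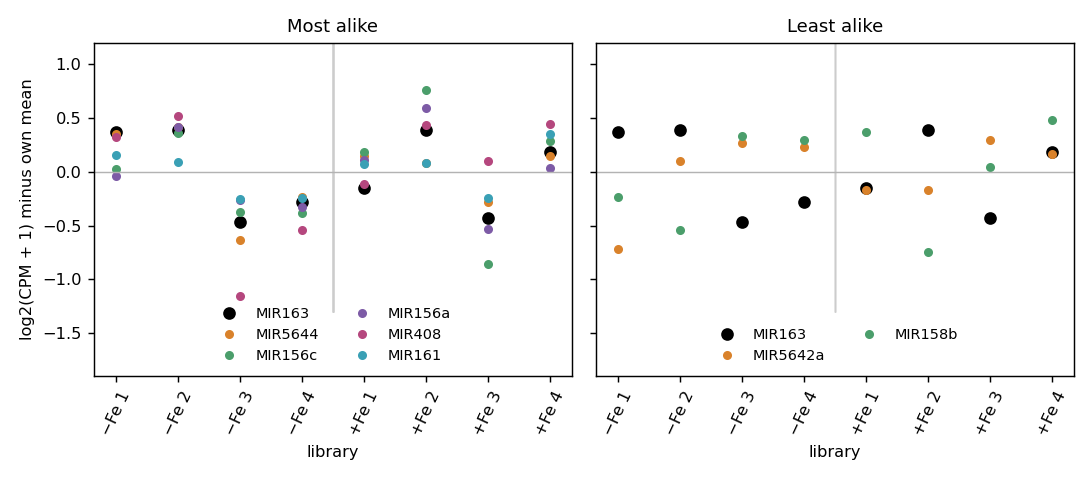
Profiles of MIR163 (black) and of the 5 precursors most like it (left) and the 2 least like it (right), as log2(CPM + 1) minus the precursor's own mean, in −Fe replicates 1 to 4 and then +Fe replicates 1 to 4. On the left the points of −Fe replicates 3 and 4 lie below 0, and on the right MIR158b and MIR5642a lie above 0 there, where MIR163 is low.

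Around MIR163 the table holds few counts. Within 25000 nt on both sides, 10 other loci held between 45 and 1636 counts each, 5207 together, and MIR163 held 84.3% of the counts of that window. The locus nearest to it, and the only one within 5000 nt, began 465 nt after the precursor, inside LIG6, from 24884861 to 24886478. Its counts were 183, 198, 95 and 105 in −Fe replicates 1 to 4, against 197, 264, 189 and 405 in +Fe replicates 1 to 4. That is 12.2 ± 4.93 CPM in −Fe and 23.1 ± 11.8 CPM in +Fe exudates (SD, n = 4 each, exact permutation p = 0.171), with overlapping groups and the highest value in +Fe replicate 4. In edgeR's test its log2 fold change was -0.71 with an unadjusted p of 0.0418 and a Benjamini-Hochberg adjusted p of 0.645.

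**Figure D5:**
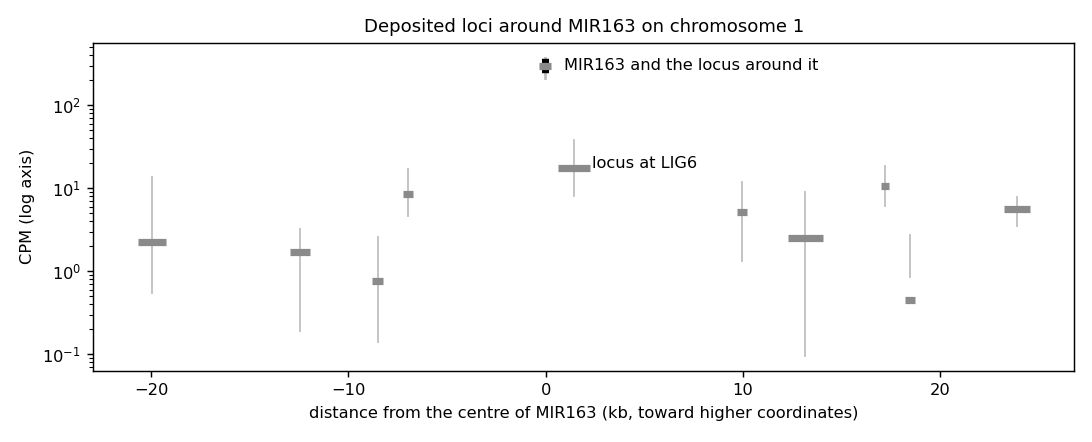
Deposited loci around MIR163 on chromosome 1 by distance from its centre in kb. Thick bars show the mean CPM over the 8 libraries (log axis) over the length of each locus, and thin lines run from the lowest value above 0 to the highest. MIR163 (black) and its enclosing locus (grey) stand at 295 CPM, and the locus at LIG6 is next at 17.6 CPM.

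Small RNA loci at the target genes were examined next, because cleaved miRNA targets can give rise to secondary small RNAs. Such counts are not mRNA levels, which were not measured. None of the 5 target genes, AT1G66690, PXMT1 (AT1G66700), AT1G66720, FAMT (AT3G44860) and AT3G44870, overlapped a locus of the table, while 10308 of the 27432 nuclear protein-coding genes (37.6%) overlapped at least 1. The table lists counts at defined loci only, so this does not give a limit for small RNAs at these genes.

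Of the 19 other SABATH genes examined, 5 overlapped a locus, with 6 loci in all. JMT and BSMT1, which methylate jasmonic and salicylic acid, had none. The locus at IAMT1 (AT5G55250), which methylates the auxin indole-3-acetic acid, had 37, 26, 35 and 23 counts in −Fe replicates 1 to 4, against 51, 38, 32 and 36 counts in +Fe replicates 1 to 4. The locus at GAMT2 (AT5G56300), which methylates gibberellins, had 49, 122, 46 and 31 counts in −Fe, against 74, 54, 38 and 1 counts in +Fe replicates 1 to 4. The −Fe and +Fe values overlapped at both genes (exact two-sided permutation tests of CPM, p = 0.200 for IAMT1 and 0.457 for GAMT2).

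The locus at AT1G68040 held 597 counts, with 4.82 ± 4.60 CPM in −Fe and 7.64 ± 1.64 CPM in +Fe exudates (SD, n = 4 each, exact permutation p = 0.286). Of the loci at AT1G15125, one held 104 counts, with 1.11 ± 1.09 CPM in −Fe and 0.976 ± 0.860 CPM in +Fe exudates, values that overlapped in range. The other, on chromosome 1 from 5203451 to 5204426, held 16, 19, 6 and 0 counts in −Fe replicates 1 to 4, against 0, 1, 0 and 0 counts in +Fe replicates 1 to 4. It had counts in 3 of the 4 −Fe libraries, at a low mean of 0.879 CPM in −Fe. Since −Fe replicate 4 had no count, the groups overlapped (exact permutation test of CPM, p = 0.143). edgeR gave it an unadjusted p of 0.0536 and an adjusted p of 0.645, and with 1 count in all of +Fe the size of its fold change is not determined by the counts. None of the 6 loci had an unadjusted p under 0.05 in edgeR's test, where 6.69% of all tested loci did, and 6 loci are too few to differ from that share. Their log2 fold changes ran from -0.60 at AT1G68040 (standard error 0.63) to 4.84 at the AT1G15125 locus with 1 count in +Fe (standard error 2.39). Their median of 0.60, beside 0.07 over all tested loci, is therefore not read as a shift. On the scale per kilobase they lay between 0.463 and 12.8 CPM per kb, against 892 CPM per kb at MIR163.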

How the data were processed

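The authors trimmed adapters with Cutadapt, keeping reads of any size, and used ShortStack for alignment and quantification (version not given in the sources used here); the labels name TAIR10. The deposited values are raw read counts per locus in each of the 8 libraries, with a column of their sum, which was not used for any value. All library columns were used (0 left out). CPM were computed here with library totals, each the sum over all deposited loci, in Python 3.11.15 (scipy 1.17.1). Differences were tested with edgeR 4.0.16 in R 4.3.3 (quasi-likelihood F-test, condition as the only term, TMM scaling) at every locus whose 8 libraries summed to 10 counts or more, with Benjamini-Hochberg adjustment over all of them; the standard error was derived from the F statistic. DESeq2 1.42.0 was an alternative. Single values were compared by exact permutation over all 70 splits into 4 and 4 libraries. The tests were run on simulated data as a check of the code. Counts simulated for the edgeR and DESeq2 fits had lower dispersions than the common dispersion of these data. They do not show how small a change can be found here. The libraries are labelled as biological replicates.

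Genes were assigned by position with the TAIR10.1 table, with an overlap of at least 1 nt, regardless of strand. Named precursors are MIR163, the 3 above and 3 below it, the 3 highest, and the 5 most and 2 least alike; named genes are the miR163 targets and the other SABATH genes with a locus of at least 100 counts. JMT, BSMT1 and the locus at AT1G15125 with under 100 counts were named after their values were seen. The precursor and the gene lists were chosen with earlier results of these data known. The alternatives were other scaling, filters, thresholds and tools, the replicate number as a block, and each library left out. Sequences were not analysed here.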

Additional observations from a re-analysis of the deposited data

Results flagged for a closer look

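In 44 groups of 4 libraries examined for a library far from the other 3, 1 was found, and chance alone gives about 1 in 20. It was MIR158a in +Fe replicate 4, with 6210 CPM, where the other 3 +Fe libraries had between 4215 and 4479 CPM. The cause was not tested. No MIR163 value stood apart in this way.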

How the results depend on the processing

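The log2 fold change of MIR163 stayed positive and without a call under all alternatives, from 0.02 with library totals to 0.37 without −Fe replicate 3. Leaving out 1 library at a time moved it between 0.07 and 0.37, the difference of mean CPM between -22.8 and 33.8, its rank between 11 and 13, and the r with the other precursors between 0.675 and 0.903. The rank was 15 per kilobase, and the CV was 16.4% as a share of precursor counts. DESeq2 called 34 loci and the fit with the replicate block 3, against 0 in the main comparison, and leaving out 1 library gave 0 to 1 (the 1 without +Fe replicate 2). With the replicate number as a block the log2 fold change of MIR163 was 0.21. Deviations of same-numbered libraries correlated between -0.00185 and 0.0492 over the loci. −Fe replicates 1 to 3 each correlated best with their own number. −Fe replicate 4 correlated best with +Fe replicate 1, and no correlation was above 0.1. Such correlations do not settle whether same-numbered libraries shared growth or handling, and the labels do not say. The main tests did not treat the numbers as pairs. At the target genes, asking for 50% of the locus inside the gene also gave 0 genes. Leaving out loci that overlap a precursor, and summing by family, were added after seeing the data. With 4 libraries per condition, the between-library spread and not the number of reads limits the comparison of MIR163.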
